A study of Mus musculus with 10 samples.

Results

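The genes described here encode subunits of the neuronal voltage-gated sodium channels. They were the 7 genes Scn1a, Scn2a, Scn3a, Scn8a, Scn2b, Scn3b and Scn4b, picked by name among the 18216 genes of the table by a rule that uses no measured value, although earlier results of these data were known when the list was made. All 7 were in the table, and all 7 passed the filter on low values, a mean of at least 10. The tissue was prefrontal cortex, taken at postnatal day 10 from males of the strain C57BL/6N and measured by RNA sequencing. Mice heterozygous for a mutation of Arid1b (Arid1b+/-, labelled HT) were compared with wild-type mice (WT), with 5 mice and 5 libraries in each group.

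The HT mice carried 1 copy of Arid1b, a subunit gene of the BAF chromatin-remodelling complex, truncated in exon 5 by CRISPR editing. The mutation was constitutive, so every cell type of the tissue carried it. HT males and WT females had been bred to obtain the mice, and litters were not given in the labels. The replicates were separate mice, each with 1 library.

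A voltage-gated sodium channel has 1 large alpha subunit, which forms the pore and opens on depolarisation, and smaller beta subunits, which alter gating and bind to other cells and to the cytoskeleton. The channels start and carry action potentials, and they are packed at the axon initial segment and at nodes of Ranvier. Nav1.2 (Scn2a) is the main alpha subunit of excitatory cortical neurons early after birth, Nav1.6 (Scn8a) takes over much of the axon initial segment with age, Nav1.1 (Scn1a) is known for its part in parvalbumin interneurons, and Nav1.3 (Scn3a) is best known before birth. Mutations of these 4 genes cause epilepsies and neurodevelopmental disorders.

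The alpha subunit genes are close relatives, which bears on how reads were divided among them. Over the whole coding sequence, Scn1a, Scn2a and Scn3a shared 81.9% to 83.9% of aligned bases, and Scn8a shared 74.9% to 75.3% with each of them. The beta subunit genes shared 59.4% to 61.1%. Of the 31-base words in the transcripts of a gene, 9.57% of those of Scn3a, 9.16% of those of Scn2a and 7.29% of those of Scn1a also occurred in transcripts of other genes, against 0.49% for Scn8a, 2.2% for Scn2b, 0.269% for Scn3b and 0% for Scn4b. Reads that match several genes were divided among them by Salmon's model, and how far this moved the members' values was not tested.

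Scn3a (ENSMUSG00000057182, GRCm38 chromosome 2, 65457118 to 65567627, minus strand), Scn2a (ENSMUSG00000075318, chromosome 2, 65620771 to 65767447, plus strand) and Scn1a (ENSMUSG00000064329, chromosome 2, 66270778 to 66440840, minus strand) lie in a cluster. No protein-coding gene lies in the 53143 bases between Scn3a and Scn2a, and 3 (Csrnp3, Galnt3 and Ttc21b) lie in the 503330 bases between Scn2a and Scn1a. Scn8a (ENSMUSG00000023033) is on chromosome 15, 100869858 to 101045938, plus strand. The beta subunit genes are on the plus strand of chromosome 9, with Scn3b (ENSMUSG00000049281) at 40269217 to 40291618, Scn2b (ENSMUSG00000070304) at 45117782 to 45130070 and Scn4b (ENSMUSG00000046480) at 45138395 to 45154152. Scn2b and Scn4b are neighbours, separated by 8324 bases. The annotation places a transcript on the opposite strand over parts of Scn1a, Scn3a, Scn2b and Scn3b. Of these only Gm13630, opposite Scn1a, was in the table, with a mean of 26.4, and the library kit kept strand.

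The values are normalised counts, by the authors' description estimated reads per gene divided by size factors. Totals were 31106330 to 32106791 per library, the sequencing depth behind them is unknown, and the precision of each value was taken from the spread between mice. HT2 stood apart from the other libraries. Its share of transcripts from the mitochondrial genome was 8.43%, against 5.15% to 6.76% in the other libraries, and it held the lowest value of the 10 for 21.8% and the highest for 17.1% of all genes tested. The targeted gene Arid1b was at 2842 ± 142 (SD, n = 5) in WT mice and 1894 ± 86.6 (SD, n = 5) in HT mice, with a log2 fold change of -0.59 (adjusted limma p 0.0001, SE 0.05), and the groups did not overlap. The 9 markers of cortical glutamatergic neurons were above 0 in every library, with summed normalised counts of 133617 to 149459 in HT and 122917 to 154467 in WT. From 18152 to 18172 of the 18216 genes were above 0 in each library, so this does not test the tissue label.

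None of the 7 sodium channel genes passed the threshold between genotypes. Between HT and WT, 0 of 7 had a limma adjusted p under 0.05, where 0.0179% of all genes tested passed, and 0 of 7 had an unadjusted p under 0.05, where 9.23% did (4.52% lower and 4.71% higher in HT). The groups overlapped for every member, and they did not overlap for 1.62% of all genes tested. The fold change was below 0 for 5 of the 7 members, and for 51.2% of all genes tested. The median log2 fold change of the members was -0.09, against a median of -0.00 and quartiles of -0.08 and 0.09 over all genes tested.

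**Figure D1:**
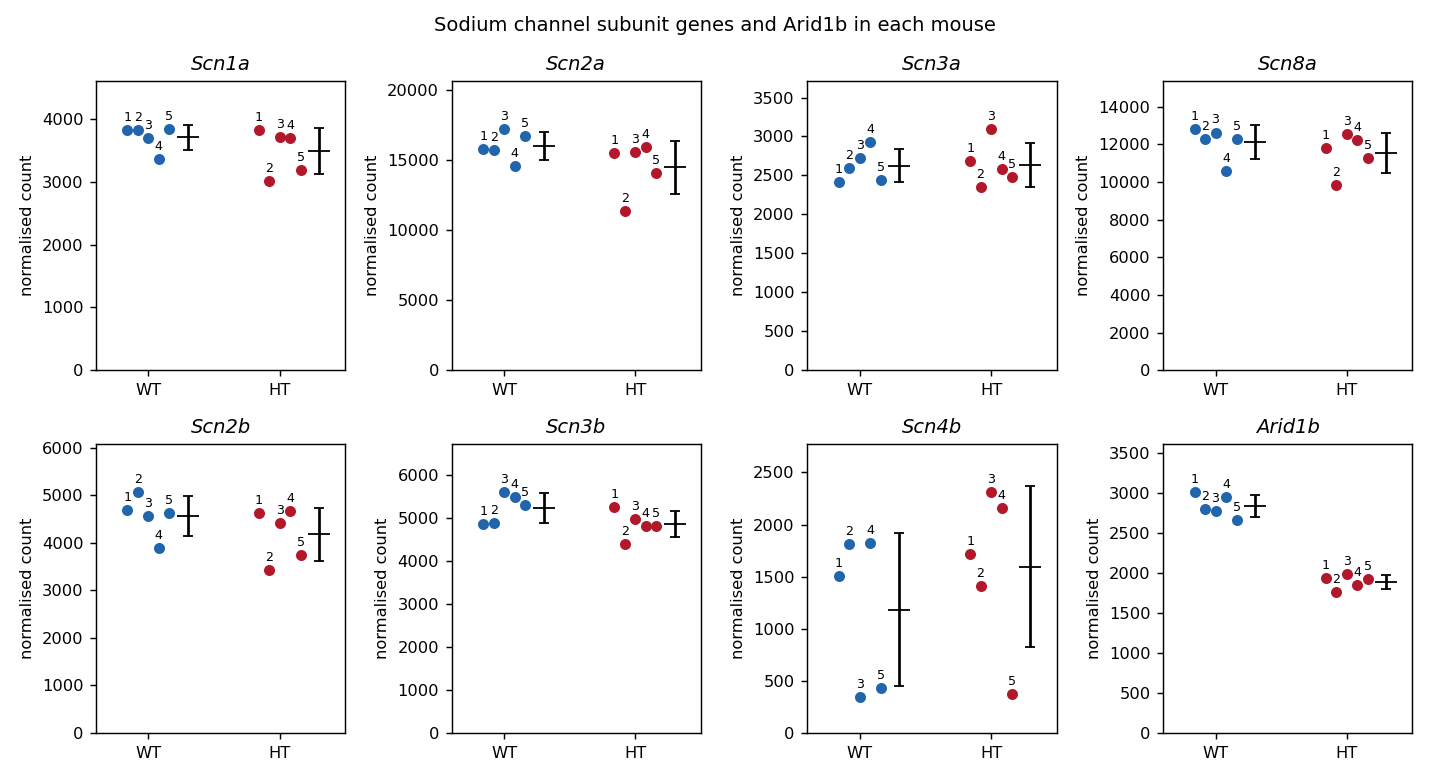
Normalised count (y axis, from 0) of the 7 sodium channel subunit genes and of Arid1b in WT (blue) and HT (red) mice. Each point is a mouse with its number, and the bar at the right of a group is the mean ± SD of 5 mice. The genotypes overlap for every sodium channel gene and are apart for Arid1b, HT2 is the lowest point for every sodium channel gene but Scn4b, and Scn4b falls into a higher and a lower group of mice within both genotypes.

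Scn2a had the highest length-scaled level of the alpha subunits. Its normalised counts were 15507, 11335, 15572, 15942 and 14065 in HT1 to HT5 and 15790, 15689, 17194, 14577 and 16736 in WT1 to WT5. HT2 and HT5 were the lowest of the 10, all 5 HT mice lay below the WT mean, and the groups overlapped. The HT mean was 14484 ± 1901 and the WT mean 15997 ± 1017 (each with the SD of 5 mice), which gave a log2 fold change of -0.15 (SE 0.08, 95% confidence interval -0.33 to 0.03) with an unadjusted limma p of 0.0945 and an adjusted p of 0.58. As a change in level, HT relative to WT, the interval ran from -20.7% to 2.09%. HT2 lay 25.8% below the mean of the other HT mice, and without it the log2 fold change was -0.07 (SE 0.05).

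Scn8a was the next by length-scaled level. Its normalised counts were 11786, 9821, 12550, 12225 and 11264 in HT1 to HT5 and 12800, 12256, 12625, 10557 and 12290 in WT1 to WT5. The lowest values were those of HT2 and WT4, so each genotype held a low mouse. Averaged over 5 mice, HT was at 11529 ± 1070 and WT at 12106 ± 895 (± SD), which gave a log2 fold change of -0.07 (interval -0.22 to 0.08, adjusted limma p 0.74, SE 0.07). Without HT2 it was -0.02 (SE 0.06) and without WT4 it was -0.12.

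Scn1a varied little among the WT mice. Its values were 3834, 3015, 3719, 3705 and 3195 in HT1 to HT5, and 3832, 3832, 3694, 3367 and 3840 in WT1 to WT5. HT2 and HT5 were again the lowest, and the other 3 HT mice lay within the WT range. The HT mean was 3494 ± 364 and the WT mean 3713 ± 203 (each with the SD of 5 mice), which gave a log2 fold change of -0.09 (interval -0.24 to 0.05, adjusted limma p 0.66, SE 0.07), and without HT2 it was -0.04 (SE 0.06). Pvalb, the marker of the interneurons for which Nav1.1 is best known, had means of 102 normalised counts in HT and 109 in WT (log2 fold change -0.06, SE 0.20). Of the 12 GABAergic markers, 7 had a log2 fold change above 0 and 5 below, with a median of 0.02. Unadjusted limma p-values under 0.05 were found for 2 of them, Npy, which was higher in HT without overlap (0.17, p 0.0016), and Vip, which was lower (-0.16, p 0.049), where 9.23% of all genes tested had such a p and 1.62% did not overlap, and their adjusted p-values were 0.39 and 0.54.

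Scn3a had the smallest difference of the 7 in the fit on genotype alone. Its values were 2686, 2355, 3093, 2582 and 2476 in HT1 to HT5, and 2417, 2592, 2727, 2933 and 2445 in WT1 to WT5. HT3 and WT4 were the highest and HT2 the lowest, and the ranges of the genotypes were nearly the same. Averaged over 5 mice, HT was at 2638 ± 282 and WT at 2623 ± 213 (± SD), which gave a log2 fold change of 0.01 (adjusted limma p 0.99, SE 0.07). Its interval of -0.15 to 0.16 allowed a change from 9.99% lower to 12.0% higher, and without HT2 the log2 fold change was 0.05 (SE 0.07). With the score of the astrocyte markers as a covariate it was 0.18 (SE 0.07, interval 0.03 to 0.33), with an unadjusted limma p of 0.0255 and an adjusted p of 0.98.

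The beta subunits encoded by Scn2b and Scn3b both had lower means in HT, by differences that did not pass the test. The beta2 subunit, which is linked to the alpha subunit by a disulphide bond, is encoded by Scn2b. Scn2b values were 4635, 3422, 4414, 4677 and 3753 in HT1 to HT5 and 4685, 5070, 4560, 3898 and 4636 in WT1 to WT5. HT2, HT5 and WT4 were the 3 lowest. The HT mean was 4180 ± 563 and the WT mean 4570 ± 424 (each with the SD of 5 mice), which gave a log2 fold change of -0.13 (interval -0.33 to 0.06, adjusted limma p 0.63, SE 0.09), and -0.06 (SE 0.08) without HT2.

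The beta3 subunit, which associates with the alpha subunit without such a bond, is encoded by Scn3b. Its values were 5246, 4400, 4967, 4818 and 4816 in HT1 to HT5 and 4860, 4888, 5603, 5494 and 5293 in WT1 to WT5. HT1 and HT3 lay among the WT values, and 4 of 5 HT mice lay below the WT mean. Averaged over 5 mice, HT was at 4849 ± 306 and WT at 5228 ± 341 (± SD). The log2 fold change was -0.11 (SE 0.06, interval -0.23 to 0.01). Its unadjusted limma p of 0.0747 was the smallest of the 7 and its adjusted p was 0.56. Without HT2 the log2 fold change was -0.07 (SE 0.05).

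Scn4b encodes beta4, which is known for its high expression in striatal projection neurons and for its part in resurgent sodium current. It was the most variable member. Its values were 1714, 1408, 2313, 2163 and 372 in HT1 to HT5, and 1503, 1809, 345, 1825 and 432 in WT1 to WT5. HT5, WT3 and WT5 were low and the other 7 mice high, so both genotypes held mice of both kinds. The coefficient of variation was 48.4% in HT and 62.3% in WT, against 5.46% to 13.5% for the other 6 members in either group. The HT mean was 1594 ± 772 and the WT mean 1183 ± 737 (each with the SD of 5 mice), which gave a log2 fold change of 0.52 (adjusted limma p 0.76, SE 0.55), with an interval of -0.66 to 1.70, which is too wide to tell the direction.

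**Figure D2:**
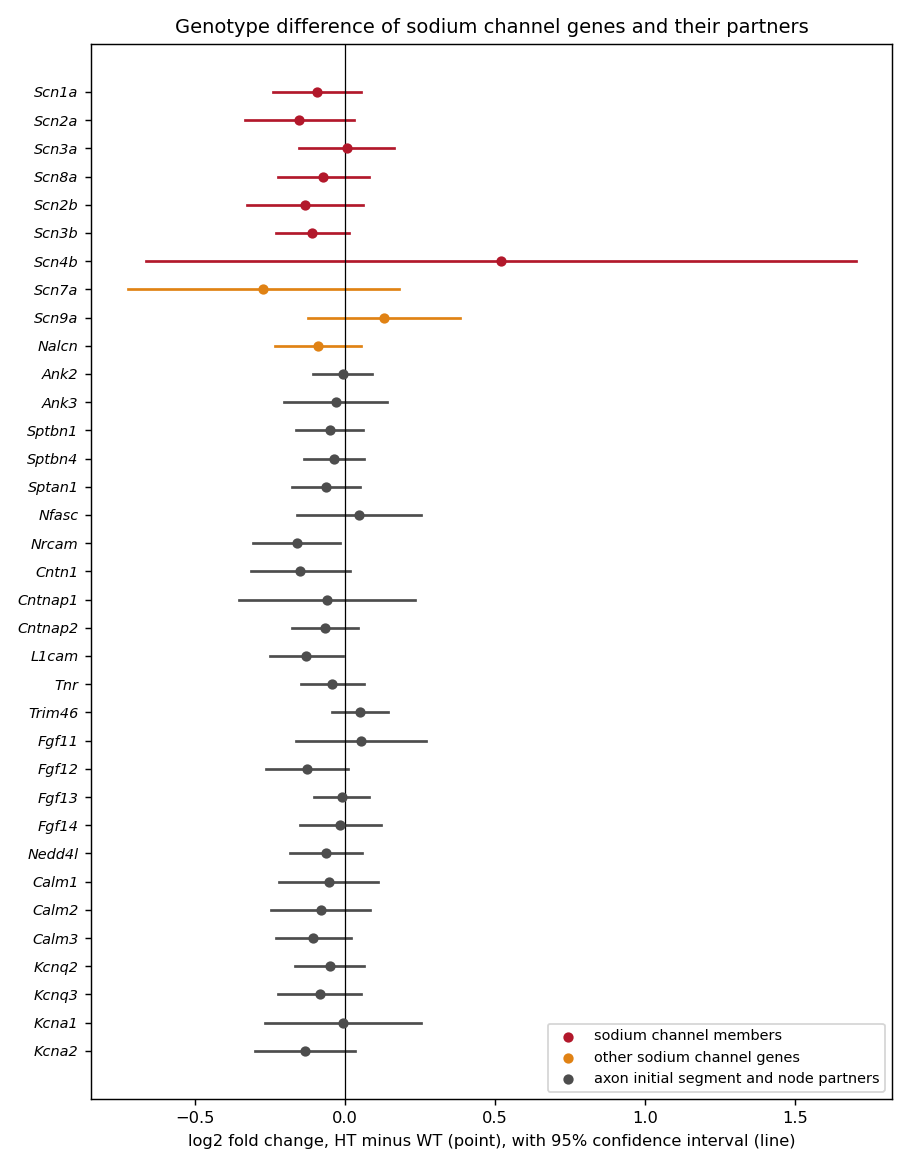
Log2 fold change, HT minus WT, with its 95% confidence interval from limma (x axis) for the 7 members (red), 3 other sodium channel genes (orange) and 25 genes of the axon initial segment and node (grey), 1 gene per row. The interval of Scn4b is the widest, from -0.66 to 1.70, the intervals of all 7 members cross 0, and those of Nrcam and L1cam lie below 0.

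Scn4b varied together with genes of striatal neurons, and whether the dissections differed in striatal tissue was not tested. A list of 12 striatal neuron markers had summed normalised counts of 6436 to 19941 in HT and 5563 to 15969 in WT. HT5, WT3 and WT5 had the 3 lowest sums, and the 12 genes were above 0 in every library except Isl1, which was at 0 in WT3 and WT5. Of the 12 markers, 0 had an unadjusted p under 0.05, where 9.23% of all genes tested did. A log2 fold change above 0 was found for 11, with a median of 0.54, and 1 was below 0, as were 51.2% of all genes tested. Averaging the z-scores of the markers over the 10 mice gave each mouse a score, which was -1.35 in HT5, -1.38 in WT3 and -1.19 in WT5, and 0.17 to 1.04 in the other mice.

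The 3 lowest mice were HT5, WT3 and WT5 in 11 of the 12 markers, as in 1.5% of all genes tested. The exception was Tac1, a neuropeptide gene of striatal projection neurons, which was at 309 in HT5, 369 in HT2 and 405 in WT3, was highest in WT5 at 511, and had a log2 fold change of -0.15 (SE 0.13). Drd2, the D2 dopamine receptor, had normalised counts of 291, 270, 442, 373 and 62.3 in HT1 to HT5 and 276, 291, 58.6, 405 and 67.0 in WT1 to WT5. Pde10a, a phosphodiesterase of striatal neurons, had 5327, 4642, 7441, 6477 and 2496 in HT1 to HT5 and 4847, 5050, 2683, 5818 and 2571 in WT1 to WT5. Ppp1r1b, which encodes DARPP-32, ranged from 1724 to 4790 in HT and from 863 to 3769 in WT. These 3 are examples of the 11.

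Oligodendrocyte markers varied in part with the same mice. Their score was -0.29 in HT5, -2.27 in WT3 and -0.63 in WT5, but also -0.63 in WT4, where Scn4b was high, and 0.38 to 0.94 in the other 6 mice. WT3 was the lowest of the 10 mice in all 8 of these markers, and in 11.7% of all genes tested. All 8 had a log2 fold change above 0, with a median of 0.39, where 51.2% of all genes tested were below 0, and 0 had an unadjusted p under 0.05, where 9.23% did. Summed normalised counts of the list were 61362 to 90821 in HT and 34261 to 93013 in WT. The part of these cells in the values of Scn4b was not tested.

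In a fit with the striatal score as a covariate, which leaves the members out of the score, the log2 fold change of Scn4b was -0.0064 and its SE fell from 0.55 to 0.08 (limma adjusted p 0.98). In a fit without HT5, WT3 and WT5 it was 0.13 (SE 0.15, limma adjusted p 1.00). Drd2, a marker in the score, had r = 0.994 with Scn4b over the 10 mice, and the covariate fit does not test a cause. In these bulk samples, fewer cells of a type and less RNA per cell cannot be told apart. The ratio of Scn2b to its neighbour Scn4b was 10.1, 13.2 and 10.7 in HT5, WT3 and WT5 and 1.91 to 3.12 in the other 7 mice. Scn2b was also low in HT5 (3753, 12.5% below the mean of the other HT mice), but not in WT3 or WT5. Pearson's r of the log2 values of Scn2b and Scn4b over the 10 mice was 0.14.

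**Figure D3:**
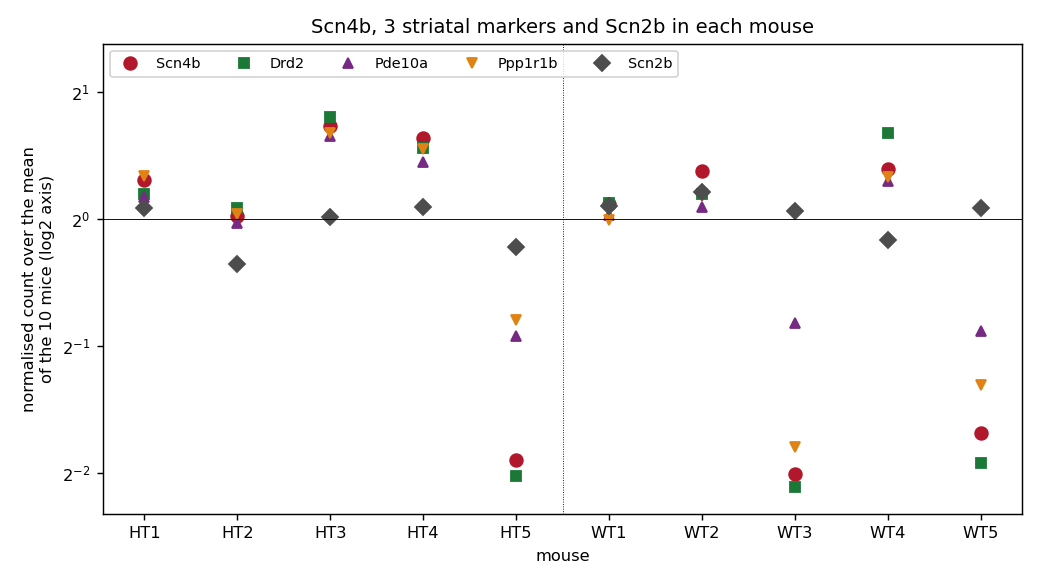
Normalised count of Scn4b (red circles), of the striatal markers Drd2, Pde10a and Ppp1r1b and of Scn2b (grey diamonds) in each mouse, divided by the gene's mean over the 10 mice (y axis, log2 scale, 2 to the power 0 is the mean). Scn4b and the 3 markers are low in HT5, WT3 and WT5, while Scn2b stays near its mean in WT3 and WT5 and lies below its mean in HT5.

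Apart from Scn4b, the members shared a low value in HT2. It was the lowest of the 10 mice in 6 of the 7 members, all but Scn4b, where 21.8% of all genes tested had their lowest value in HT2. HT5 was among the lowest 3 in 6 members and WT4 in 4. The order of the other mice differed between genes, and WT3 was the highest in Scn2a and Scn3b, WT5 in Scn1a, WT1 in Scn8a, WT2 in Scn2b and HT3 in Scn3a and Scn4b.

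HT2 was also low in pan-neuronal and glutamatergic markers and high in those of astrocytes, oligodendrocyte precursors, microglia and endothelial cells. It held the lowest value in 9 of 10 pan-neuronal markers, whose summed normalised counts were 189782 to 239417 in HT and 227162 to 247140 in WT. Its score for these markers was -1.85, against -0.29 to 0.66 in the other 9 mice, and that for cortical glutamatergic markers was -1.55. Its score was 0.09 for the 12 GABAergic markers, within the range of the other mice (-0.44 to 0.44), and 0.17 for the striatal and 0.38 for the oligodendrocyte markers. Its scores for astrocyte, oligodendrocyte precursor, microglia and endothelial markers were 1.36, 1.37, 1.55 and 1.98, each the highest of the 10 mice. HT5 had scores of 1.29 for astrocyte and 1.48 for microglia markers, and the highest score among the remaining 8 mice was 0.43 for astrocytes and -0.05 for microglia. The 5 olfactory bulb markers had summed normalised counts of 3157 in HT2 and 3146 in WT4, the mice with the lowest Scn8a, and 536 to 1868 in the others. Without HT2 and WT4 the log2 fold change of Scn8a was -0.06 (SE 0.04).

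Of the 12 astrocyte markers, 8 reached an unadjusted p under 0.05 and were higher in HT, as were 4.71% of all genes tested, and the sums of the list were 171145 to 215676 in HT and 155056 to 182512 in WT. Of the 10 pan-neuronal markers, 3 did (Elavl4, Stmn2 and Tubb3), all lower in HT, as were 4.52% of all genes tested, and of the 10 microglia markers 3 did, all higher. None of these passed adjustment over all genes, and no gene of these 3 lists was at 0 in any library. With the pan-neuronal score as a covariate, the log2 fold changes of Scn1a, Scn2a, Scn8a and Scn2b were 0.01, 0.01, 0.03 and 0.00, that of Scn3b was -0.03, and those of Scn3a and Scn4b were 0.08 and 0.41. With HT2 and HT5 both left out, those of Scn1a, Scn8a and Scn2b were 0.02, 0.01 and 0.01, that of Scn2a was -0.03 and that of Scn3b was -0.06, while those of Scn3a and Scn4b were 0.09 and 1.12. HT2 was among the lowest 3 mice in 6 members and HT5 in 6, so leaving them out raises the HT means by construction. The pan-neuronal score was lowest in HT2, at -1.85, and 9 of its 10 markers had a log2 fold change below 0. Adjusting for it can therefore also take up the genotype difference. A cause was not tested by either fit.

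**Figure D4:**
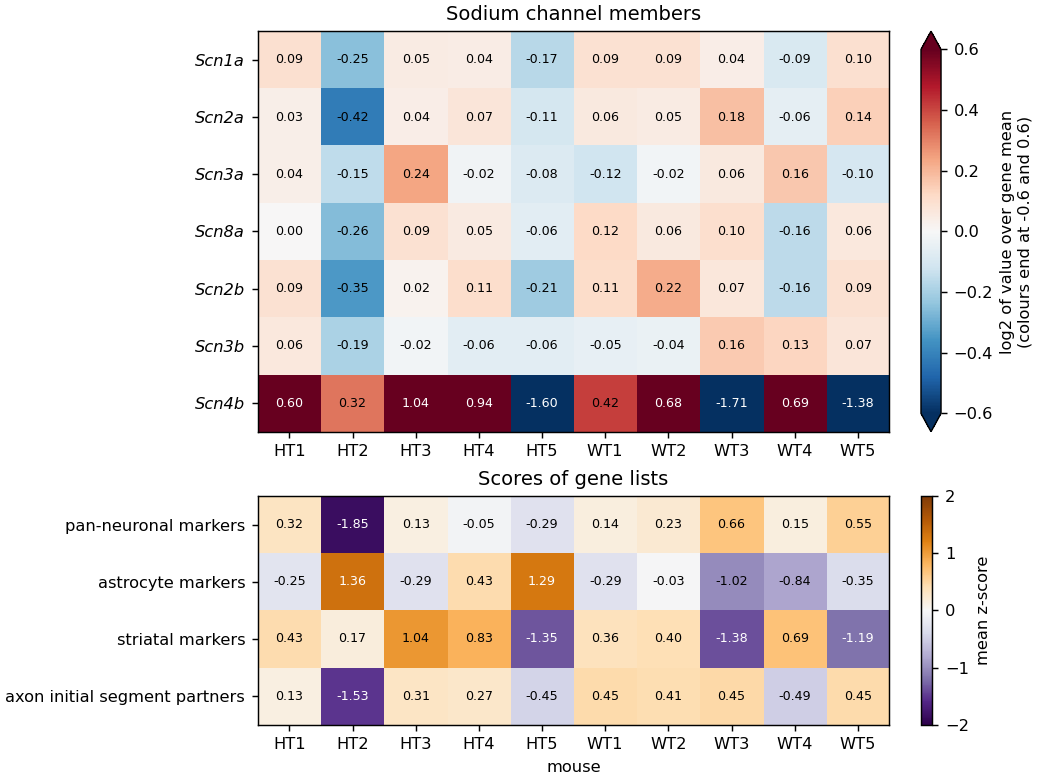
Top, log2 of each member's normalised count over its mean in the 10 mice, with the value printed in each cell. Bottom, scores of 4 gene lists in the same mice, as mean z-scores. The column of HT2 is negative in all members but Scn4b, with a pan-neuronal score of -1.85 and an astrocyte score of 1.36, and the row of Scn4b is negative in HT5, WT3 and WT5, as is the row of striatal markers.

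Levels of different genes can be compared only per length. Scaled to the length of the union of a gene's exons, Scn2a had 1257 ± 79.8 (SD, n = 5) normalised counts per kilobase in WT mice, Scn8a 768 ± 56.8, Scn1a 333 ± 18.2 and Scn3a 211 ± 17.1. The order of these 4 was the same in all 10 mice, and neighbours in it were farther apart than their spread. As a share of the 4 alpha subunits, Scn2a made up 48.9% ± 0.98 of WT and 47.4% ± 1.43 of HT (SD, n = 5), Scn8a 29.9% and 30.6%, Scn1a 13.0% and 13.1%, and Scn3a 8.23% and 8.87%.

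The ratio of Scn2a to Scn8a normalised counts, genes of channels whose balance in excitatory neurons shifts with age, was 1.15 in HT2, 1.24 to 1.32 in the other HT mice and 1.23 to 1.38 in WT. HT2 was the lowest and WT4 the highest, and the groups overlapped, with means of 1.25 ± 0.06 (SD, n = 5) and 1.32 ± 0.06 (SD, n = 5). Ratios of Scn2a to Scn3a were 4.81 to 6.17 in HT and 4.97 to 6.84 in WT.

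Among the 3 beta subunit members, Scn2b had 981 ± 91.1 (SD, n = 5) normalised counts per kilobase of exon in WT, Scn3b 957 ± 62.5 and Scn4b 237 ± 148. Scn2b and Scn3b did not differ beyond their spread. Scn4b was the lowest in all 10 mice, with a share of the summed level of the 3 genes of 3.34% in WT3, 4.24% in HT5 and 4.23% in WT5, and 13.7% or more in the other 7 mice. Scaled to the longest protein-coding transcript in place of all exons, the order of the alpha subunits was the same (1790, 1059, 443 and 274 per kilobase in WT), and Scn3b, at 1260, lay above Scn2b at 981.

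**Figure D5:**
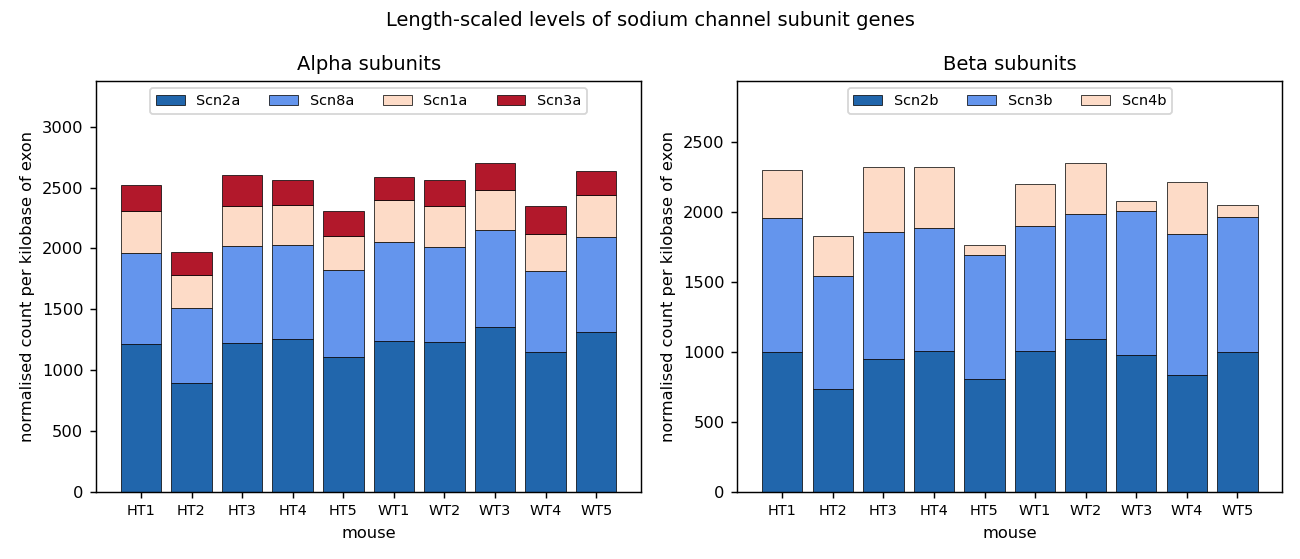
Stacked bars of the normalised count per kilobase of exon (y axis, from 0) in each mouse, for the 4 alpha subunit genes (left) and 3 beta subunit genes (right). Scn2a is the largest part of the alpha subunits in every mouse, the bar of HT2 is the shortest of the left panel and that of HT5 of the right panel, and the Scn4b part is thin in HT5, WT3 and WT5.

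Other sodium channel genes did not pass the test either. The sodium leak channel Nalcn had means of 3545 ± 378 in HT and 3754 ± 111 in WT (SD, n = 5), which gave a log2 fold change of -0.09 (limma adjusted p 0.66). Scn9a, a subunit of sensory neurons, had 156 ± 6.29 and 144 ± 25.5 (SD, n = 5), and Scn7a, a sodium-sensing relative, 49.6 ± 7.43 and 62.0 ± 19.0 (SD, n = 5) in HT and WT. The log2 fold change was 0.13 for Scn9a and -0.27 for Scn7a. Scn10a and Scn11a, which belong to sensory neurons, had means of 4.98 to 8.50 in either group and fell below the filter, and Scn4a was not analysed here.

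Genes whose proteins hold the channels at the axon initial segment and nodes, or bind to them, differed by small amounts. Of 25 such genes, 22 had a fold change below 0, as did 51.2% of all genes tested, with a median of -0.05, and 0 had an adjusted p under 0.05. An unadjusted p under 0.05 was found for 2, both lower in HT, where 4.52% of all genes tested had such a p in that direction. HT2 was the lowest of the 10 mice in 18 of the 25, and in 21.8% of all genes tested.

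Nrcam, a cell adhesion molecule of the axon initial segment and node, was at 14593, 12040, 13837, 14695 and 12865 in HT1 to HT5 and at 14889, 15576, 15828, 13354 and 16388 in WT1 to WT5. The groups overlapped through WT4, with a log2 fold change of -0.16 (limma p 0.0321 unadjusted and 0.51 adjusted, SE 0.07). L1cam, a related adhesion molecule of axons, had means of 10924 ± 789 in HT and 11933 ± 684 in WT (SD, n = 5), which gave a log2 fold change of -0.13 (limma p 0.0410 unadjusted and 0.52 adjusted, SE 0.06). Fgf12, an intracellular partner of the alpha subunits, had the next smallest p, with a log2 fold change of -0.13 (unadjusted limma p 0.0653, adjusted p 0.55). For the scaffold Ank3 (ankyrin-G), which anchors the channels, the log2 fold change was -0.03 (adjusted limma p 0.91, SE 0.08).

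Of 6 genes of the proteases that cut beta subunits, 0 had an unadjusted p under 0.05, where 9.23% of all genes tested did. The smallest p was that of Ncstn, a subunit of gamma-secretase. It had 2268 to 2349 in HT and 2112 to 2247 in WT, without overlap, as in 1.62% of all genes tested, which gave a log2 fold change of 0.08 (limma p 0.0658 unadjusted and 0.55 adjusted, SE 0.04). Bace1, the beta-secretase that cleaves beta2, had a log2 fold change of -0.09 (unadjusted limma p 0.132), and the gamma-secretase subunit Aph1a had 0.11 (unadjusted limma p 0.271).

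Of 13 regulators of transcription and splicing known for neuronal or sodium channel genes, 1 had an unadjusted p under 0.05 and was lower in HT, a share near the 4.52% of all genes tested. This was Rbfox2, a splicing factor, with values of 10640, 9782, 10761, 10132 and 9983 in HT1 to HT5 and 11227, 11457, 11839, 11104 and 10824 in WT1 to WT5. The groups did not overlap, as in 1.62% of all genes tested, and differed by a log2 fold change of -0.14 (SE 0.04, unadjusted limma p 0.0064), but the adjusted p over all genes was 0.47. Celf4, an RNA-binding protein, had a log2 fold change of -0.08 (unadjusted limma p 0.0945) and Rcor1, a partner of the repressor REST, -0.08 (unadjusted limma p 0.126). Rest itself was at 228 ± 35.1 in HT and 219 ± 20.1 in WT (SD, n = 5), with a log2 fold change of 0.05.

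The genes whose pattern over the 10 mice was most like that of each member were listed by Pearson's r of log2 values among 13881 genes with a mean of at least 50, as a description in which all points share the same libraries. For Scn2a they were Pclo (r = 0.991), Pafah1b1, Pgm2l1, Oxct1 and Prkacb, and for Scn8a Arhgef17 (r = 0.981), Hivep2, 9330121K16Rik, Lrrc4 and Ptprn2. For Scn1a they were Nipa1 (r = 0.973), Ttll7, Btbd8, Kcnt2 and Exoc3. For Scn3a, Psip1 (r = 0.926), Slco3a1, Ezh1, Sertad4 and Tenm2 came first.

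For Scn2b the list was Pde4a (r = 0.967), Gpr158, Vamp4, Creld1 and Lrrc4, and for Scn3b it was Nsg2 (r = 0.978), Gng3, Gnao1, Hif1a and Tax1bp1. Lrrc4 was the only gene on the lists of 2 members. For Scn4b the list held Serpina9 (r = 0.995), Drd2 (r = 0.994), Rxrg (r = 0.988) and Myo3b (r = 0.985). Over the 7 mice without HT5, WT3 and WT5 these were 0.941, 0.855, 0.826 and 0.846 in the same order.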

How the data were processed

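RNA of 10 libraries, 1 per mouse, was measured by poly-A, strand-specific, paired-end sequencing. The authors estimated transcripts with Salmon 1.1.0 (GC bias correction, GRCm38), summed them to genes with tximport and divided by DESeq2 1.30.1 size factors, so the deposited values are a normalised signal per gene. Only 13.7% to 40.2% of values under 20 were whole multiples of a step (tolerance 0.05 steps). A single divisor per library was thus not seen in the values, and no count test was run. The table's lowest row total was 41.7, and its filter is not given in the sources used here.

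GENCODE M21 matched 18205 of 18216 gene IDs. Values were taken as log2(value + 1), which understates changes of low genes, and 16781 genes with a mean of at least 10 were fitted with limma 3.58.1 (R 4.3.3, eBayes with trend), with genotype as the only factor, two-sided tests and Benjamini-Hochberg adjustment over all of them (threshold 0.05). Confidence intervals are 95%. The fit was tried on simulated data with independent noise for each gene and planted changes larger than those of the members. This does not test it for differences as small as the members' or for shifts shared by the genes of a library.

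The members and gene lists were chosen with earlier results of these data known. Named were all members and other sodium channel genes, in each partner list the genes with an unadjusted p under 0.05 (or the 3 smallest p), and the 5 genes most like each member. Some genes and sequences are not reported here and were left out of the lists. Ank3, Rest and the cell type markers given with values were named after their values were seen. Alternatives were other pseudocounts, filters, scalings and variance settings, sample weights, covariates, a length and GC correction, the replicate number as a block, and mice left out.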

Additional observations from a re-analysis of the deposited data

Results flagged for a closer look

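Within each genotype, 23 measures per mouse (levels, shares and scores) were examined for a mouse set far from the others, using as ratio its gap to the nearest mouse over the whole range of the genotype, with a critical value of 0.71. Of 46 groups 3 passed, where chance gives about 2.3. Scn8a in WT4 had a count of 10557, where the remaining WT mice had 12256 to 12800, a ratio of 0.757. The share of Scn3a among the alpha subunits in WT4 was 10.0%, against 7.45% to 8.12% in the other WT mice, a ratio of 0.737, and WT4 also had the highest Scn3a and the lowest Scn8a count of the WT mice. The pan-neuronal marker score in HT2 was -1.85, against -0.29 to 0.32 in the other HT mice, a ratio of 0.718.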

How the results depend on the processing

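No alternative put a member past an adjusted p of 0.05, and Arid1b passed under all, with log2 fold changes of -0.63 to -0.54. Leaving out 1 mouse at a time gave log2 fold changes of -0.13 to -0.04 for Scn1a, -0.19 to -0.07 for Scn2a, -0.053 to 0.047 for Scn3a (reversed in 4 of 10 fits), -0.12 to -0.02 for Scn8a, -0.19 to -0.06 for Scn2b, -0.14 to -0.07 for Scn3b, 0.16 to 0.98 for Scn4b (lowest without WT3, highest without HT5) and -0.61 to -0.56 for Arid1b. In these fits 0 to 1 members and 1 to 6 partner genes had an unadjusted p under 0.05, against 0 and 3 with all mice. The fewest partner genes came without HT5 or WT3 and the most without WT4, and the member was Scn3b without HT1, WT1 or WT2 and Scn2b without WT4.

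Leaving out HT2 and HT5 turned the direction of Scn1a (0.017), Scn8a (0.013) and Scn2b (0.0065) and gave 1 member (Scn4b, 1.12, unadjusted limma p 0.048, adjusted p 0.83) and 1 partner gene. The astrocyte covariate turned Scn1a (0.024), Scn2a (0.011), Scn8a (0.018) and Scn3b (0.012) and gave 1 member (Scn3a, 0.18, unadjusted limma p 0.025, adjusted p 0.98) and 0 partner genes. The striatal covariate turned Scn3a (-0.020) and Scn4b (-0.0064), and the GABAergic covariate Scn3a (-0.0099). Without turning the direction, the astrocyte covariate moved Scn2b to -0.010 and Scn4b to 0.99 (SE 0.74), and the GABAergic covariate moved Scn4b to 0.19 (SE 0.44). The pan-neuronal covariate, chosen after seeing the data, turned Scn1a (0.011), Scn2a (0.010), Scn8a (0.032) and Scn2b (0.00012). The partner genes were 1 without a variance trend, 0 without HT5, WT3 and WT5, and 7 without HT2 and WT4, the last 2 chosen after seeing the data. In each case the cause was not tested. Quantile normalisation moved Scn8a from -0.072 to -0.024 and Scn3a from 0.0059 to 0.024, and sample weights gave -0.062 for Scn1a, -0.097 for Scn2a, 0.054 for Scn3a and -0.068 for Scn3b, each over 1.5 times from its value in the fit on genotype alone. Leaving out HT5, WT3 and WT5 also moved members other than Scn4b, among them Scn1a from -0.093 to -0.047 and Scn2a from -0.152 to -0.086. With the replicate number as a block, 0 members passed, 3 partner genes had an unadjusted p under 0.05 and the log2 fold change of Scn4b was 0.52 (SE 0.37). The numbers belong to different mice and the correlation of the deviations of same-numbered mice was -0.041 to 0.101, below 0 for numbers 2 and 4, so they were not treated as pairs. Its mean was 0.038, against -0.009 for other pairs, and 5 of 10 mice correlated best with their own number where chance gives about 2, a hint of pairing from the data and not from the design. Depth is unknown, so how far it limits the low genes was not assessed.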
